A study of Mus musculus with 12 samples.

Results

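The 9 genes described here encode subunits of the CCC complex and of retromer, and partners of theirs in endosomal sorting: Ccdc22, Ccdc93, Dscr3 (now named Vps26c), Vps29, Vps35, Vps26a, Vps26b, Snx17 and Snx27. They were chosen by name, and every probe that carried the name or an older synonym was taken, which gave 12 of 39429 probes and 9 of 31693 gene names on the array. All 12 probes were well above background on all 12 arrays, so the filter on dim probes neither removed nor admitted any of them. RNA came from macrophages of 2 Commd1 knockout (KO) mice and 2 Commd1 wildtype (WT) mice, grown from bone marrow in GM-CSF (20 ng/ml, 10 days), a cytokine that drives marrow progenitors toward macrophages and related cells. From each mouse, 1 sample was left untreated, 1 received 10 ng/mL lipopolysaccharide (LPS, a glycolipid of Gram-negative bacteria that activates macrophages through TLR4) for 3 h and 1 received it for 24 h. The 12 samples, 1 array each, thus formed 6 groups of 2: KO untreated, KO 3 h, KO 24 h, WT untreated, WT 3 h and WT 24 h. Strain, age and the way the allele was deleted are not given in the sources used here, and each genotype rests on 2 mice.

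Endosomes receive membrane proteins taken in from the cell surface and either pass them on to lysosomes or send them back. Retromer, built from VPS35, VPS29 and VPS26A or VPS26B, carries cargo from endosomes to the trans-Golgi network and, with the adaptor SNX27, to the plasma membrane. Retriever is a related assembly of VPS35L, VPS29 and VPS26C (encoded by Dscr3), and it recycles cargo such as integrins that the adaptor SNX17 binds. The CCC complex takes its name from its COMMD, CCDC22 and CCDC93 subunits, acts with retriever, and includes COMMD1, the protein encoded by the gene deleted in these mice. In myeloid cells these routes handle receptors, integrins and transporters that are brought back to the surface.

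Each value below is a log2 signal relative to the 75th percentile of its array, so that 1 unit is a doubling, and levels are not compared between genes because probes differ in brightness. Commd1 stood between -0.50 and 0.07 on the KO arrays, against 2.70 to 2.89 on the WT arrays, and its KO minus WT log2 differences were -3.01 untreated, -2.92 at 3 h and -3.05 at 24 h (SE 0.23 each). Whether its probe lies in the deleted part is not given in the sources used here. All 8 macrophage markers of the list (Csf1r, Adgre1, Cd68 and others) were well above background in every group. The sum of these 8 on the log2 scale was 8.37 to 8.42 in KO and 8.12 to 8.21 in WT untreated samples. It was 8.78 to 9.02 in KO and 8.61 to 8.63 in WT at 3 h, and 8.55 to 8.62 in KO and 8.62 to 8.67 in WT at 24 h. Markers of other cells were also read. Of 5 neutrophil markers on the array, 4 were well above background in every group and Cxcr2 only in WT at 3 h. Their summed log2 level was 4.38 to 4.41 in KO and 4.48 to 4.59 in WT untreated samples, 3.71 to 3.85 in KO and 4.23 to 4.27 in WT at 3 h, and 4.44 to 4.62 in KO and 4.64 to 4.76 in WT at 24 h, lower on both KO arrays than on both WT arrays at each time. The median KO minus WT difference of these 5 genes was -1.18 untreated, where 1 was called lower, -0.41 at 3 h and -0.90 at 24 h. Of 6 dendritic cell markers, 4 to 6 were well above background, with a summed log2 level of 2.66 to 3.39 in KO and 2.54 to 2.71 in WT untreated samples. Their sum was 3.65 to 4.15 in KO and 3.15 to 3.34 in WT at 3 h, and 3.66 to 3.74 in KO and 2.86 to 2.96 in WT at 24 h. The 3 stroma markers were well above background in every group, with sums of 0.82 to 1.85 in KO and 1.01 to 1.37 in WT. The B cell marker sums were -4.79 to -3.64 in KO and -5.00 to -3.40 in WT, with 2 to 3 of 3 above background. Those of T and NK cell markers were -0.91 to -0.42 in KO and -0.68 to -0.40 in WT. Of these 3 markers, 1 was above background in KO and 2 in WT. Mast cell marker sums were -7.11 to -1.95 in KO and -2.87 to -1.13 in WT, with 1 to 2 of 3 above background. The value of -7.11 came from 1 KO array at 24 h, where the other read -2.66. Sums of different lists are not set against each other, because the lists differ in probes and in number of genes. Ms4a1, a defining B cell marker, was not well above background in 4 of 6 groups, and Cd3d, a defining T cell marker, was well above background in no group. The part of such cells in the results was not tested, and in bulk samples fewer cells of a type and less RNA per cell cannot be told apart. Each of the 3 slides held the 4 arrays of 1 time, so that the slide cannot be told apart from the time of LPS, and KO and WT lay at fixed positions of a slide. Log2 signal of the spike-in RNAs increased with their amount at a slope of 0.794 to 0.799 on KO arrays and 0.735 to 0.743 on WT arrays of the untreated and 3 h slides, and 0.842 to 0.869 on KO and 0.820 to 0.824 on WT arrays at 24 h. Of all probes, 59.6% to 69.3% were well above background on KO arrays and 65.1% to 72.9% on WT arrays.

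Promoter sequences are shown for Dscr3 and Vps26b, whose levels moved together, and for Vps26a, the paralog of Vps26b, whose level did not move with them. Each is RefSeq sequence of GRCm38.p6 from 250 bases before to 50 bases after the gene's start, read on the minus strand, with capitals marking the motifs found: chr16:94526580-94526879 for Dscr3, chr9:27030045-27030344 for Vps26b and chr10:62486756-62487055 for the upstream start of the 2 listed for Vps26a.
Dscr3 promoter: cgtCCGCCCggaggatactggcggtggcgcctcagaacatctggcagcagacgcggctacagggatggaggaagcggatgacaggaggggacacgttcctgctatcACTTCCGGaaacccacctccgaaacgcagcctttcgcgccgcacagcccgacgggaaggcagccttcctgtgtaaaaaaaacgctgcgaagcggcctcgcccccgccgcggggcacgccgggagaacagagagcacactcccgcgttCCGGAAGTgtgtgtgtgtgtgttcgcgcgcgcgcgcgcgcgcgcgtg
Vps26b promoter: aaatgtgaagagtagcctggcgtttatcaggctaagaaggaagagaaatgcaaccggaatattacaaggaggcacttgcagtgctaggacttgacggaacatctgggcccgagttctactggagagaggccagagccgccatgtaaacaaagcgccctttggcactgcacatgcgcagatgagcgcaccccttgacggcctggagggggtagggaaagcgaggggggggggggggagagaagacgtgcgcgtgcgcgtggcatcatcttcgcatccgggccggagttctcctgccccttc
Vps26a promoter: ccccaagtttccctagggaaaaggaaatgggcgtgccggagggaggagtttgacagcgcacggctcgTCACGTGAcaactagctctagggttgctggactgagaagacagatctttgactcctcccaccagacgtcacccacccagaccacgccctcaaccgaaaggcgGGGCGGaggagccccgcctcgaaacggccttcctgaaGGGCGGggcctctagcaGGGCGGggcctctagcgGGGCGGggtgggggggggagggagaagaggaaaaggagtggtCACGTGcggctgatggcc
The Dscr3 window held 2 copies of CCGGAAGT, the core bound by ETS factors, 1 of them starting 144 bases before the start and the other at base 4 after it, and 1 GC box (GGGCGG). The letters of the ETS site occur in 3.89% of all 32851 promoter windows of this length, and those of the GC box in 35.7%. The Vps26b window held none of the 7 motifs searched on both strands. The Vps26a window held 1 copy of TCACGTGA, the core of the CLEAR element found at lysosomal genes, which 0.974% of all windows hold, with 4 GC boxes and 2 copies of the E-box CACGTG (7.15% of windows), 1 of which lies within the CLEAR core. The others searched were the CRE TGACGTCA (1.79% of windows), the kB-like site GGANTTTCC (1.25%) and the AP-1 site TGANTCA (7.81%), with N for any base. None of these 3 occurred in the windows of the 6 members that the promoter table holds, where Ccdc22 had 1 E-box, Vps29 2 GC boxes, and Snx17 1 GC box and 1 ETS site. These matches are letters in a window and nothing was measured at them.

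In the LPS comparisons of both genotypes the genes moved in different directions and on different schedules. Ccdc93 was higher at both times, and Ccdc22 and Vps35 were lower at 24 h. Dscr3 and Vps26b were lower at 3 h and did not pass against untreated at 24 h. Snx17 passed the test in no comparison. Tests were two-sided, from limma fitted to all genes with Benjamini-Hochberg adjustment at 0.05. After 3 h of LPS, 5 of the 9 genes passed in KO and 4 of 9 in WT, where 52.1% (KO) and 46.5% (WT) of all genes tested passed. In KO 1 of the 9 was higher and 4 were lower, beside 26.4% higher and 25.7% lower among all genes, and in WT 1 was higher and 3 were lower, beside 23.2% and 23.3%. After 24 h, 6 of 9 passed in KO and 4 of 9 in WT, beside 57.5% (KO) and 49.9% (WT) of all genes. These were 3 higher and 3 lower in KO, beside 26% and 31.5% of all genes, and 1 higher and 3 lower in WT, beside 23.6% and 26.4%. Between 24 h and 3 h, 5 of 9 passed in KO and 5 of 9 in WT, beside 58.9% (KO) and 52.6% (WT) of all genes. In each genotype 2 were then higher and 3 lower at 24 h, beside 26.3% and 32.6% of all genes in KO and 25.7% and 26.9% in WT. The shares of members called lay near those of all genes. The median absolute log2 difference of the 9 genes was 0.34 in KO and 0.15 in WT at 3 h, against 0.45 in KO and 0.39 in WT over all genes, and 0.36 in KO and 0.19 in WT at 24 h, against 0.52 in KO and 0.43 in WT over all genes. Both LPS times were set against the same untreated samples. With 2 arrays a group, the arrays of most genes do not overlap between times: this held in KO for 76.3% of all genes at 3 h and 77.2% at 24 h against untreated and 76.5% at 24 h against 3 h, with 7 of the 9 genes in each. In WT it held for 77.6% (7 of the 9), 79.3% (6 of the 9) and 82.1% (9 of the 9) in the same order.

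**Figure D1:**
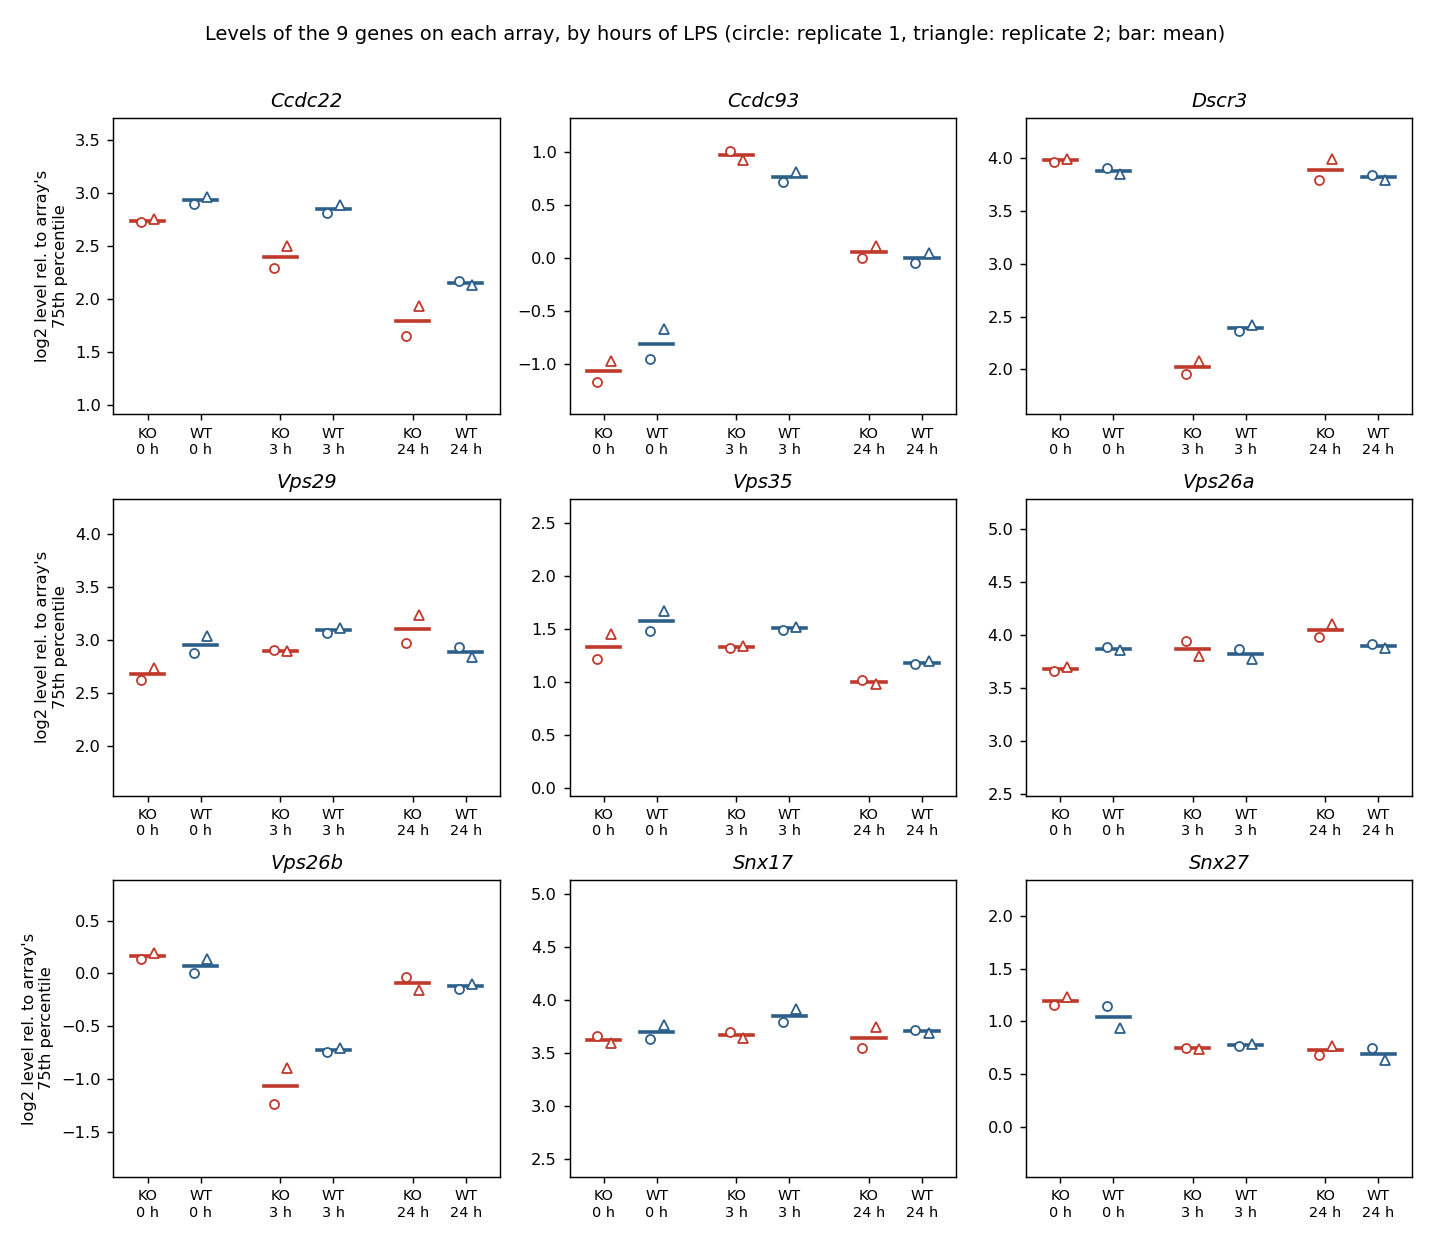
Level of each of the 9 genes on every array (log2 signal relative to the array's 75th percentile), with KO left of WT at each time of LPS (0 h is untreated). Circles are replicate 1, triangles replicate 2 and bars the mean of both; every panel spans the same log2 range, and Ccdc93 rises while Dscr3 and Vps26b dip at 3 h in both genotypes.

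Ccdc93, a scaffold subunit of the CCC complex that binds CCDC22, showed the largest rise of the 9 genes. Its brighter probe (chr1:123397921-123397980, mm9, plus strand, 10 spots on each array) read -1.17 and -0.98 in untreated KO, 1.01 and 0.93 in KO at 3 h and 0.00 and 0.11 in KO at 24 h. In WT it read -0.96 and -0.67 untreated, 0.71 and 0.81 at 3 h and -0.05 and 0.05 at 24 h. In both genotypes the untreated arrays were lowest, the 3 h arrays highest and the 24 h arrays between them, with no overlap between times. At 3 h the level rose 4.12-fold in KO (log2 difference 2.04 ± 0.12 SE, adjusted p = 2.22e-06) and 2.98-fold in WT (1.58 ± 0.12, adjusted p = 1.36e-05). The changes per mouse at 3 h were 2.18 and 1.91 in KO and 1.67 and 1.48 in WT, larger in both KO mice than in either WT mouse. The KO minus WT difference of the 3 h response, 0.47 ± 0.17, did not pass (adjusted p = 0.312, unadjusted p = 0.0239, 95% interval 0.08 to 0.85). At 24 h it was 2.18-fold above untreated in KO (1.13, adjusted p = 7.73e-05) and 1.76-fold in WT (0.81, adjusted p = 0.000675), and it fell by 0.91 in KO and by 0.76 in WT between 3 h and 24 h. The SD among the 10 spots of an array was 0.03 to 0.06, which is a spread within an array and not between mice. Between the 2 arrays of a group the SD reached 0.20, in untreated WT.

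A second Ccdc93 probe lies upstream of it and is shown because its 60 bases span 3951 bases of the genome (chr1:123334434-123338384, mm9, plus strand), which places it across introns.
Ccdc93 probe A_52_P262096: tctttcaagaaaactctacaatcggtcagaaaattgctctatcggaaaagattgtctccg
This dimmer probe read -2.67 and -2.94 in KO and -3.14 and -3.12 in WT at 3 h, against -4.64 and -4.73 in KO and -4.53 and -4.40 in WT untreated samples. It went the same way as the brighter probe, with log2 differences of 1.88 ± 0.15 in KO and 1.34 ± 0.15 in WT at 3 h, and of 0.55 in KO and 0.48 in WT at 24 h, each past the threshold when all probes were fitted on their own.

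Ccdc22, the partner of CCDC93 in the complex, moved the other way and later. Its probe (chrX:7170988-7171047, mm9, minus strand, 10 spots on each array) read 2.73 and 2.75 in untreated KO, 2.30 and 2.50 in KO at 3 h and 1.65 and 1.94 in KO at 24 h. The WT arrays read 2.90 and 2.97 untreated, 2.82 and 2.89 at 3 h and 2.17 and 2.13 at 24 h. The 24 h arrays were the lowest in both genotypes, and at each time both KO arrays were below both WT arrays. At 24 h the level fell 1.92-fold in KO (-0.94 ± 0.11, adjusted p = 0.000164) and 1.72-fold in WT (-0.78 ± 0.11, adjusted p = 0.000642). At 3 h it was lower in KO by a call close to the threshold (-0.34 ± 0.11, adjusted p = 0.0346), which was lost in 7 of the 12 fits that left out an array. The WT value at 3 h was -0.08 (adjusted p = 0.593). The difference between the genotypes in the 3 h response was -0.26 (adjusted p = 0.588). The SD among the 10 spots of an array was 0.04 to 0.07.

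Dscr3, the VPS26-like subunit of retriever, had the largest fall. Its probe (chr16:94719534-94719593, mm9, minus strand) read 3.96 and 3.99 in untreated KO, 1.96 and 2.08 in KO at 3 h and 3.79 and 3.99 in KO at 24 h. In WT the values were 3.90 and 3.85 untreated, 2.37 and 2.42 at 3 h and 3.84 and 3.79 at 24 h. All 4 arrays at 3 h lay more than 1 unit below the 8 others. The level at 3 h fell 3.88-fold in KO (-1.96 ± 0.09, adjusted p = 7.55e-07) and 2.80-fold in WT (-1.48 ± 0.09, adjusted p = 4.51e-06). At 24 h it differed from untreated by -0.09 in KO (95% interval -0.30 to 0.13) and -0.06 in WT (-0.27 to 0.15), and neither passed. With quantile normalization the KO value at 24 h was -0.27 and passed (adjusted p = 0.0172). It was higher at 24 h than at 3 h by 1.87 in KO and 1.42 in WT. The changes per mouse at 3 h were -2.00 and -1.91 in KO and -1.54 and -1.43 in WT. The KO minus WT difference of the response, -0.47 ± 0.13, did not pass (adjusted p = 0.2, unadjusted p = 0.00671, 95% interval -0.77 to -0.17).

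Vps26b, 1 of 2 alternative VPS26 subunits of retromer, followed the same course at a smaller size. Its probe (chr9:26816021-26816080, mm9, minus strand) read 0.14 and 0.19 in untreated KO, -1.23 and -0.90 in KO at 3 h and -0.04 and -0.15 in KO at 24 h. WT samples had 0.00 and 0.14 untreated, -0.74 and -0.70 at 3 h and -0.14 and -0.10 at 24 h. The 3 h arrays were the lowest in each genotype and did not overlap with the others. At 3 h it fell 2.35-fold in KO (-1.23 ± 0.12, adjusted p = 4e-05) and 1.73-fold in WT (-0.79 ± 0.12, adjusted p = 0.000738), and from 3 h to 24 h it rose by 0.97 in KO and 0.60 in WT. At 24 h it did not differ from untreated past the threshold in KO (-0.26, adjusted p = 0.0917) or WT (-0.19, adjusted p = 0.221). The changes per mouse at 24 h were -0.17 and -0.35 in KO and -0.15 and -0.23 in WT, all below 0. The KO value at 24 h passed with normexp background correction (-0.30, adjusted p = 0.0363) and with the percentile over probes detected on all arrays (-0.39, adjusted p = 0.033). The KO minus WT difference of the 3 h response was -0.44 ± 0.17 (adjusted p = 0.333). Over the 12 arrays, which share 3 slides, the levels of Vps26b and Dscr3 correlated with r of 0.965, and those of Vps26b and Ccdc93 with r of -0.907. These are descriptions of 6 groups.

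Vps26a, the other VPS26 subunit of retromer, did not fall at 3 h. Its probe (chr10:61918119-61918178, mm9, minus strand) read 3.67 and 3.70 in untreated KO, 3.94 and 3.80 in KO at 3 h and 3.99 and 4.10 in KO at 24 h. In WT all 6 arrays lay between 3.77 and 3.92. At 24 h it was higher in KO by 0.36 ± 0.09 (1.29-fold, adjusted p = 0.00674), while the WT value was 0.02 (95% interval -0.17 to 0.22). The difference between these responses, 0.34 ± 0.12, did not pass (adjusted p = 0.259). The 3 h values were 0.19 in KO (adjusted p = 0.0992) and -0.05 in WT (adjusted p = 0.652). After quantile normalization the WT value at 3 h was -0.34 and passed, and the 24 h rise in KO was 0.17 and did not. The 24 h call in KO was also lost with only the groups compared in the fit (adjusted p = 0.0715).

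Vps29, the subunit that retromer and retriever share, passed the test at 24 h in KO and not in WT. Its brighter probe (chr5:122813236-122813295, mm9, plus strand) read 2.62 and 2.73 in untreated KO, 2.90 and 2.90 in KO at 3 h and 2.98 and 3.24 in KO at 24 h. The WT values were 2.87 and 3.04 untreated, 3.07 and 3.11 at 3 h and 2.94 and 2.84 at 24 h. The KO arrays did not overlap between untreated and 24 h, and the WT arrays did. The log2 difference at 24 h was 0.43 ± 0.11 in KO (1.35-fold, adjusted p = 0.00948) and -0.07 in WT (adjusted p = 0.638). The difference between the responses, 0.50 ± 0.16, did not pass (adjusted p = 0.201, unadjusted p = 0.0118). A second probe that overlaps the first by most of its length gave 0.41 in KO and -0.09 in WT. The KO call was lost with only the groups compared in the fit (adjusted p = 0.0743) and without replicate 1 of the untreated KO group (0.38, adjusted p = 0.0614).

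Vps35, the core subunit of retromer, was lower at 24 h. Its probe (chr8:87785143-87785202, mm9, minus strand) read 1.21 and 1.45 in untreated KO, 1.32 and 1.34 in KO at 3 h and 1.01 and 0.98 in KO at 24 h. In WT the probe read 1.48 and 1.67 untreated, 1.49 and 1.52 at 3 h and 1.17 and 1.19 at 24 h. The 24 h arrays were below all others of their genotype. Relative to untreated it fell by 0.34 ± 0.10 in KO (adjusted p = 0.0212) and by 0.39 ± 0.10 in WT (adjusted p = 0.012), a 1.26-fold and a 1.31-fold decrease. At 3 h the difference was -0.00276 in KO and -0.07 in WT. The 24 h call in KO was lost without replicate 2 of the untreated KO group (adjusted p = 0.149), without replicate 2 of the KO 24 h group (adjusted p = 0.066) and with only the groups compared (adjusted p = 0.116). The call in WT was lost without replicate 2 of the untreated WT group (adjusted p = 0.0794) and without replicate 1 (adjusted p = 0.062) or replicate 2 (adjusted p = 0.0526) of the WT 24 h group.

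Snx17, the adaptor of retriever, ranged over the 12 arrays from 3.55 to 3.91 (chr5:31501123-31501182, mm9, plus strand). At 3 h the difference from untreated was 0.04 in KO (95% interval -0.18 to 0.26) and 0.15 in WT (-0.07 to 0.38), and at 24 h it was 0.02 in KO (-0.20 to 0.24) and 0.0046 in WT (-0.22 to 0.23). With quantile normalization its 3 h value in KO was -0.27 and passed (adjusted p = 0.0229), so its direction there depends on the scaling.

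Snx27, the adaptor that links retromer to recycling to the plasma membrane, was lower at 3 h on both of its probes, and the probes disagreed at 24 h. The brighter probe (chr3:94306779-94306838, mm9, minus strand) read 1.16 and 1.23 in untreated KO, 0.75 and 0.74 in KO at 3 h and 0.68 and 0.77 in KO at 24 h. WT arrays gave 1.15 and 0.94 untreated, 0.76 and 0.79 at 3 h and 0.75 and 0.64 at 24 h. By this probe the log2 differences were -0.45 ± 0.09 in KO (adjusted p = 0.00395) and -0.27 ± 0.09 in WT (adjusted p = 0.0464) at 3 h, and -0.47 in KO (adjusted p = 0.00297) and -0.35 in WT (adjusted p = 0.0149) at 24 h. The second probe (chr3:94304638-94304697, mm9, minus strand) read -0.43 and -0.29 in untreated KO, -1.15 and -1.05 in KO at 3 h and -0.63 and -0.13 in KO at 24 h. The same probe in WT read -0.55 and -0.71 untreated, -1.28 and -1.19 at 3 h and -0.70 and -0.67 at 24 h. Its log2 differences at 3 h were -0.74 in KO (adjusted p = 0.00354 over all probes) and -0.60 in WT (adjusted p = 0.0123). At 24 h it differed from untreated by -0.02 in KO (adjusted p = 0.929) and -0.05 in WT (adjusted p = 0.807). Only the 3 h decrease of Snx27 is thus shared by both probes, and the WT call at 3 h by the brighter probe was lost in 9 of the 12 fits that left out an array. The brighter probe's WT call at 24 h was lost without replicate 1 of the untreated WT group (adjusted p = 0.1) and without replicate 2 of the WT 24 h group (adjusted p = 0.104).

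**Figure D2:**
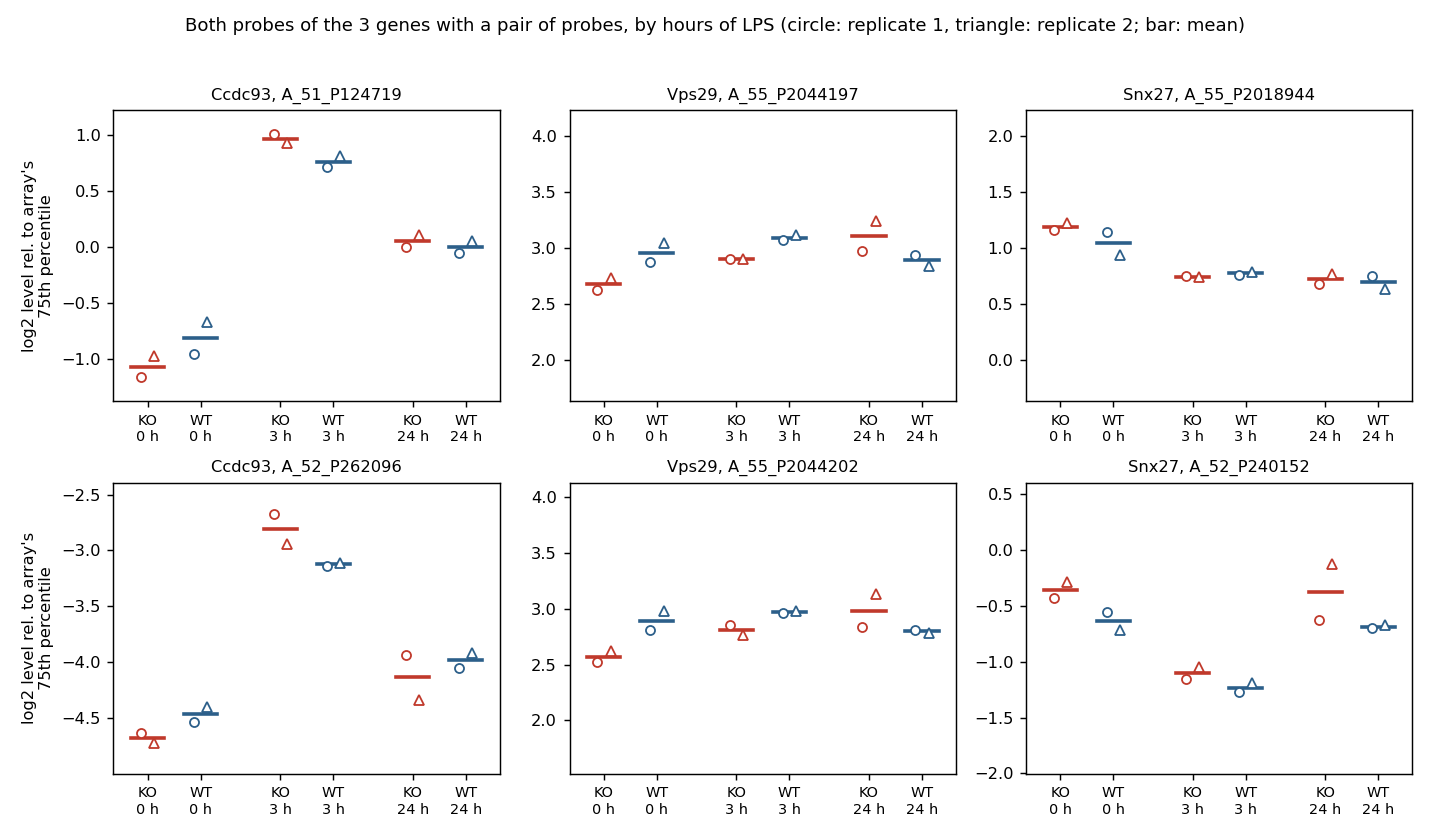
Levels by both probes of Ccdc93, Vps29 and Snx27 on every array (log2 signal relative to the array's 75th percentile, brighter probe in the upper row), with KO left of WT at each time of LPS. Circles are replicate 1, triangles replicate 2 and bars the mean; the probes of Ccdc93 and Vps29 run alike, while those of Snx27 part at 24 h.

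**Figure D3:**
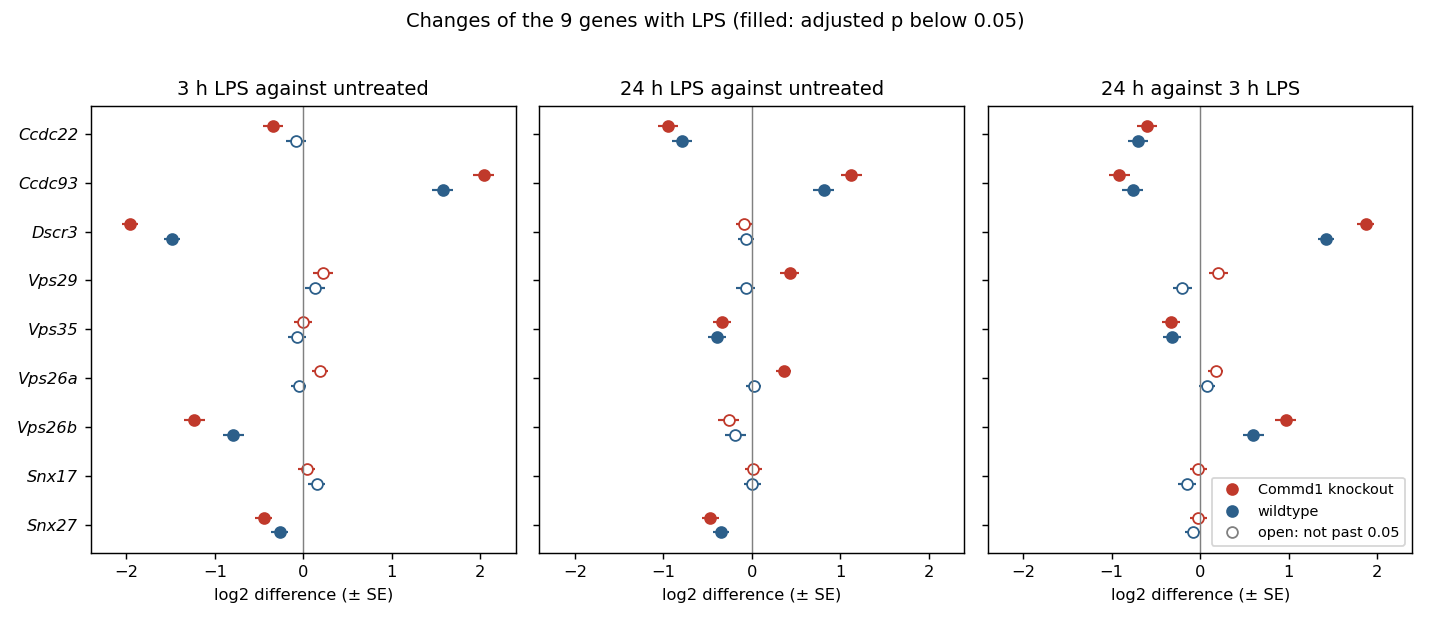
Log2 differences with their standard errors for the 9 genes between LPS times, KO (red) above WT (blue) within each gene. Filled points passed an adjusted p of 0.05: at 3 h Ccdc93 is at 2.04 in KO and 1.58 in WT, and Dscr3 at -1.96 in KO and -1.48 in WT.

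The comparison of the genotypes asked whether loss of COMMD1 went with altered RNA of its partners. None of the 9 genes passed the test between KO and WT in untreated cells, at 3 h or at 24 h, where 6.74%, 1.66% and 2.39% of all genes did. Without adjustment, 2, 3 and 1 of the 9 had a p below 0.05 at these times. None passed in the difference of the LPS responses either, where 0.0348% of all genes passed at 3 h and 0.357% at 24 h, and 3 and 2 of the 9 had an unadjusted p below 0.05. Averaged over the 3 samples of each mouse, 0 of the 9 and 0 of all genes (0%) passed between the 2 KO and 2 WT mice. Commd1, the deleted gene, did not pass in that fit either, so it cannot show that a partner was unchanged. There 2 of the 9 had an unadjusted p below 0.05. The share of all genes with an unadjusted p below 0.05 was not counted. The unadjusted counts of the 9 therefore have nothing to be read beside and give no result about these genes.

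The arrays of KO and WT did not overlap for 8 of the 9 genes untreated, 8 at 3 h and 4 at 24 h, beside 58.8%, 59.5% and 53.9% of all genes. Ccdc22, lower in KO at each time, was among them at all 3 times. Its KO minus WT difference was -0.19 ± 0.11 untreated (adjusted p = 0.331), -0.45 ± 0.11 at 3 h (adjusted p = 0.0737, 95% interval -0.71 to -0.19) and -0.35 ± 0.11 at 24 h (adjusted p = 0.131), and -0.33 ± 0.09 over mouse means (adjusted p = 0.148). Dscr3 and Vps26b differed at 3 h by -0.37 ± 0.09 (adjusted p = 0.0728) and -0.34 ± 0.12 (adjusted p = 0.136), and by 0.10 or less in size at the other times. With normexp background correction, Ccdc22 passed at 3 h (-0.44, adjusted p = 0.0364), and when the test was limited to probes detected on every array Ccdc22 (adjusted p = 0.0415) and Dscr3 (adjusted p = 0.0419) did. Both passed also when either 24 h KO array was left out, and together with Vps26b without replicate 2 of the KO 3 h group. Vps29 and Vps35 were the genes with an unadjusted p below 0.05 in untreated cells (-0.28 with adjusted p = 0.16, and -0.24 with adjusted p = 0.183). For Snx17 the 95% intervals were -0.29 to 0.15 untreated, -0.41 to 0.04 at 3 h and -0.28 to 0.16 at 24 h, and for Snx27 -0.07 to 0.37, -0.25 to 0.19 and -0.18 to 0.25. Spike-in slope and the summed level of neutrophil markers differed between the genotypes at each time, as given above. Summed levels also differed for macrophage markers untreated and at 3 h, and for dendritic cell markers at 3 h and 24 h. The part of these differences in the genotype values was not tested.

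**Figure D4:**
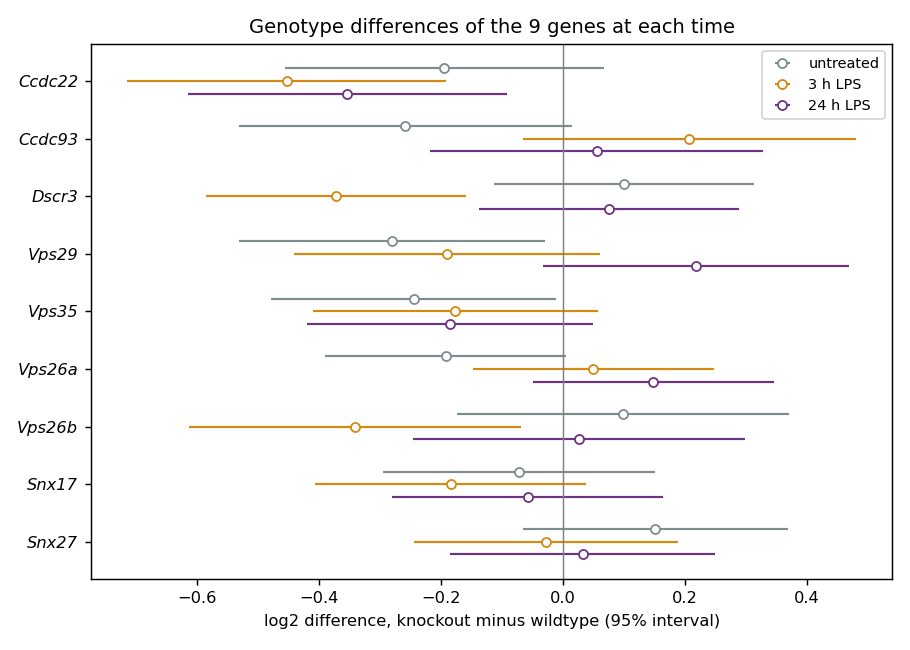
KO minus WT log2 differences of the 9 genes with 95% intervals, in untreated cells and at 3 h and 24 h (top to bottom within each gene). No value passed an adjusted p of 0.05; all 3 values of Ccdc22 are below 0, from -0.45 to -0.19.

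The other subunits of these assemblies were read from lists of pathway genes, and each median below is set beside the median of all genes, which was 0.06 in KO and 0.03 in WT at 3 h and -0.07 in KO and -0.04 in WT at 24 h. Each count of genes that rose or fell is read beside all genes, of which 26.4% rose and 25.7% fell at 3 h in KO and 23.2% rose and 23.3% fell in WT. At 24 h, 26% rose and 31.5% fell in KO and 23.6% rose and 26.4% fell in WT. Of the 10 COMMD genes, which form the core of the CCC complex, 0 rose and 4 fell at 3 h in KO, and 0 rose and 2 fell in WT. At 24 h, 6 rose and 0 fell in KO, and 4 rose and 2 fell in WT. The median log2 difference of the list was -0.18 in KO and -0.16 in WT at 3 h, and 0.32 in KO and 0.20 in WT at 24 h. These medians kept their sign under the other scalings tried. The 3 h values were -0.68 in KO and -0.50 in WT for Commd8, and -0.57 in KO and -0.67 in WT for Commd9. Commd5 was higher at 24 h by 0.67 in KO and 0.44 in WT. Vps35l, the VPS35-like subunit of retriever, was higher at 24 h by 0.51 in KO and 0.39 in WT. Dennd10, a further CCC subunit, fell at 3 h with values of -0.34 in KO and -0.49 in WT. Between KO and WT, only Commd1 passed among these 12 genes at each time.

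A list of 7 sorting nexins was read beside retromer and the ESCPE-1 coat, and not all of the 7 belong to either. Of these, 2 rose and 1 fell at 3 h in KO, and 1 rose and 3 fell in WT (median -0.02 in KO and -0.15 in WT). At 24 h, 3 rose and 2 fell in KO, and 3 rose and 3 fell in WT (median 0.23 in KO and 0.21 in WT). Snx5, a subunit of that coat, fell at 3 h with log2 differences of -0.93 in KO and -0.81 in WT. Snx1, its partner, was higher at 24 h by 1.02 in KO and 0.53 in WT, and Snx2 by 1.06 in KO and 0.51 in WT. Snx4 differed in direction between times: its values were 0.58 in KO and 0.56 in WT at 3 h and -0.60 in KO and -0.59 in WT at 24 h. Of the 7 genes listed for the WASH complex, which nucleates actin on endosomes, 2 rose and 1 fell at 3 h in KO, and 3 rose and 2 fell in WT (median 0.05 in KO and 0.01 in WT). At 24 h, 2 rose and 1 fell in each genotype (median 0.19 in KO and 0.12 in WT). Washc2, the subunit that binds retromer, fell at 24 h with values of -0.84 in KO and -0.59 in WT, and Capza2, a capping protein subunit, was higher by 1.00 in KO and 0.87 in WT. The 3 h medians near 0 changed sign with the scaling: for the WASH list they were -0.30 in KO and -0.17 in WT with quantile normalization, and for the sorting nexins 0.05 in KO with normexp. None of these 14 genes passed between KO and WT.

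Of 15 regulators of retromer and RAB7, 5 rose and 3 fell at 3 h in KO, and 4 rose and 3 fell in WT (median -0.14 in KO and 0.05 in WT, the WT value turning to -0.04 with quantile normalization). At 24 h 8 rose and 3 fell in KO, and 6 rose and 2 fell in WT (median 0.30 in KO and 0.23 in WT). Ehd1, which shapes recycling tubules, was higher at 3 h by 3.29 in KO and 3.38 in WT, and Rab32, a small GTPase of lysosome-related organelles, by 1.69 in KO and 1.51 in WT. Its relative Rab38 fell at 24 h with log2 differences of -2.29 in KO and -1.86 in WT, as did Tbc1d5, which inactivates RAB7, with -1.07 in KO and -0.69 in WT. In untreated cells Rab38 (0.70, adjusted p = 0.0207) and Ehd1 (0.48, adjusted p = 0.0376) were higher in KO than in WT, where 3.73% of all genes were higher and 3.01% lower. Neither passed over mouse means or with only the groups compared in the fit, where no gene passed. Of 14 genes of early endosome identity, 7 rose and 4 fell at 3 h in KO, and 6 rose and 4 fell in WT (median 0.30 in KO and 0.22 in WT, the KO value turning to -0.01 with quantile normalization). At 24 h, 5 rose and 5 fell in KO, and 4 rose and 4 fell in WT. Tgfbrap1, a tethering subunit, fell at 3 h with values of -1.74 in KO and -1.24 in WT, and Pik3c3, the lipid kinase of endosomes, with -1.33 in KO and -1.21 in WT. None of the 14 passed between KO and WT.

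Of 16 cargoes of retromer, SNX17 or SNX27, 8 rose and 5 fell at 3 h in KO, and 6 rose and 4 fell in WT (median 0.24 in KO and -0.07 in WT). At 24 h, 4 rose and 8 fell in KO, and 4 rose and 7 fell in WT (median -0.19 in KO and -0.36 in WT). Sort1, the receptor sortilin, fell at 24 h with log2 differences of -5.46 in KO and -4.33 in WT. Slc2a1, the glucose transporter GLUT1, was higher at 3 h by 2.67 in KO and 1.54 in WT. In untreated cells Sorl1 (1.15, adjusted p = 0.0288) and Vldlr (1.03, adjusted p = 0.0359) were higher and Slc2a1 lower (-0.79, adjusted p = 0.0143) in KO than in WT. They were among 2 higher and 3 lower of the 16, beside 3.73% higher and 3.01% lower among all genes. At 24 h, 0 were higher and 4 lower in KO than in WT, where 0.722% of all genes were higher and 1.67% lower. Among the 4 were Sort1 (-1.49, adjusted p = 0.0124) and Slc1a5 (-0.73, adjusted p = 0.044). None of these cargo differences between KO and WT passed over mouse means or with only the groups compared in the fit, where no gene passed. Levels of a cargo's RNA say nothing of its place in the cell, which was not measured.

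For the 4 genes whose group means ranged furthest, the genes with the most similar levels over the 12 arrays were taken from 17755 genes that were well above background on every array. Ccdc93 ran closest to Hcar2, Cgas and Tnip3 (Pearson's r of 0.997, 0.996 and 0.996). Dscr3 ran closest to Ormdl3, Tmem218 and Camk2g (0.999, 0.997 and 0.997), Vps26b to Elp6, Hectd3 and Rcan3 (0.991, 0.990 and 0.989), and Ccdc22 to Cldn12, Slc19a1 and Gm4535 (0.996, 0.994 and 0.992). Many genes share each pattern: 948 genes had an r over 0.9 with Ccdc93, 1355 with Dscr3, 1130 with Vps26b and 708 with Ccdc22. The points share 6 groups and 3 slides, so these values describe the time course and carry no test.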

How the data were processed

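Each of the 12 macrophage RNA samples was hybridised to a single-colour Agilent array of its own. Per the file headers, the authors' scanner files give for each of 43020 spots a processed intensity, background-subtracted and detrended within the array but not scaled between arrays, made with Agilent Feature Extraction 10.7.3.1 per the submitters' processing notes. The deposited value table holds log2 values of the same arrays and served as an alternative. Coordinates of probes are those of the files (mm9). No spot was saturated, and the number of arrays, 2 per group, limits the precision.

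Outlier spots were left out, spots of a probe averaged, and log2 processed intensity reduced by the array's 75th percentile. A probe was kept where some group had it well above background on both of its arrays (28444 of 39429 probes), and the brightest stood for its gene (22995 genes). Gene names came from the reference table for 26412 probes by accession, 3854 by symbol and 735 by synonym, while 8428 stayed under the files' own name. Group means of all 12 arrays were fitted in limma 3.58.1 (R 4.3.3, statmod 1.5.0; 6 residual and 2.23 prior degrees of freedom), with contrasts for LPS within each genotype, KO against WT at each time, and the difference of responses; a further fit used the mean of each mouse. Benjamini-Hochberg adjustment ran over all genes with a value in the comparison, and ± gives standard errors in log2 units. The fit was tested on simulated data. Figures were drawn with matplotlib 3.10.9 (Python 3.11.15, pandas 2.3.3, numpy 2.4.6).

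The 3 samples of a mouse are paired by the labels. Deviations of the same mouse from the group means correlated over 22657 genes between untreated and 3 h (r of 0.36 in KO, 0.19 in WT), between untreated and 24 h (0.13 in KO, 0.13 in WT) and between 3 h and 24 h (0.12 in KO, 0.15 in WT).

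The 9 genes, the lists and the naming rule were chosen with earlier results of these data known. All 9 genes are named in each comparison, and from each list at most 3 genes past the threshold with the largest absolute difference, here a selection of those. Alternatives were normexp background correction (offset 50), quantile normalization, the percentile over probes detected on all arrays, other filters on dim probes, the mean over a gene's probes, the deposited value table, fits of only the groups compared, the mouse as a block, and leaving out each array. Fitting each probe on its own was chosen after seeing the data.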

Additional observations from a re-analysis of the deposited data

How the results depend on the processing

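In all alternatives, the calls against untreated of Ccdc93, Dscr3 and Vps26b at 3 h kept their direction and passed in both genotypes. The same held for Ccdc93 and Ccdc22 at 24 h against untreated. It also held for Ccdc22, Ccdc93, Dscr3 and Vps26b at 24 h against 3 h. The count of the 9 genes called between KO and WT at 3 h, 0 in the report, was 1 with normexp and 2 when only probes detected on every array entered. With only the compared groups in the fit, 3 of the 9 rather than 6 passed at 24 h in KO. Snx17 at 3 h in KO turned to -0.27 with quantile normalization. Snx27 at 24 h against 3 h, -0.02 in KO and -0.08 in WT, turned to 0.35 in KO with the mean over its probes, and to 0.72 in KO and 0.55 in WT by its second probe. The cause was not tested. With the mouse as a fixed or a random block (paired analysis), the counts of the 9 genes stayed at 5 in KO and 4 in WT at 3 h and at 6 in KO and 4 in WT at 24 h, and no call among the 9 changed. Without 1 array in turn, the counts of genes called ranged over 4 to 5 in KO and 3 to 4 in WT at 3 h, 5 to 7 in KO and 2 to 4 in WT at 24 h (2 without replicate 2 of the WT 24 h group), 4 to 6 in KO and 4 to 5 in WT between 24 h and 3 h, and 0 to 3 between KO and WT at 3 h (3 without replicate 2 of the KO 3 h group). They stayed at 0 between KO and WT untreated and at 24 h and for both differences of the responses.

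Counts over all genes between KO and WT moved more. Untreated, 1550 genes passed in the report's setting, 2578 with normexp, 453 without a filter and 0 with only the groups compared. At 3 h, 381 passed, and 1736 with normexp, 1479 with the all-array filter, 805 with the deposited table, and 0 without a filter or with only the groups compared. At 24 h, 550 passed, and 929 with the percentile over detected probes, 945 with the all-array filter, 103 without a filter and 0 with only the groups compared. Over mouse means, 274 passed with normexp. For the difference of the 3 h responses, 8 passed, and 108 with normexp, 74 with the all-array filter, 39 with the deposited table, 21 and 0 with the mouse as a random and a fixed block, and 0 without a filter or with only the groups compared. For the 24 h responses, 82 passed, and 254, 244, 178, 208, 154, 0 and 2 in that order of settings, and 128 with the percentile over detected probes. Without 1 array in turn these counts ranged over 152 to 2047 untreated, 0 to 2926 at 3 h, 61 to 994 at 24 h, and 0 to 372 and 4 to 240 for the responses. Scaling shifted the median of all genes at 24 h against untreated to 0.22 in KO and 0.18 in WT with normexp, and to -0.20 in KO and -0.13 in WT with the percentile over detected probes, against -0.07 in KO and -0.04 in WT. The share of called genes that were higher was then 64.7% in KO and 64.5% in WT with normexp, and 45.2% in KO and 47.2% in WT in the report's setting. At 3 h it was 39.2% in KO and 39.6% in WT with the percentile over detected probes, against 50.6% in KO and 49.9% in WT. Between 24 h and 3 h the normexp share was 57.3% in KO and 59.9% in WT, against 44.7% in KO and 48.9% in WT. Between KO and WT, 48.6% of called genes were higher at 24 h with normexp, against 30.2%, and 48.9% at 3 h with the percentile over detected probes, against 63.8%.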
